A study of Mus musculus with 6 samples.

Results

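The genes described are those of the serine/arginine-rich (SR) proteins and the heterogeneous nuclear ribonucleoproteins (hnRNPs), with SR-related factors and the CLK kinases, in liver of aged mice. They were taken by gene name: every Srsf and Hnrnp gene, plus Tra2a, Tra2b, Clk1 to Clk4, Son, Srrm1, Srrm2, Rbm25, Luc7l, Luc7l2 and Luc7l3, leaving out pseudogene rows. This gave 44 of 55802 gene symbols, made up of 11 SR protein genes, 9 SR-related genes, 4 CLK kinase genes and 20 hnRNP genes. The filter on low counts passed 43 of them. Srsf12 did not pass, with 5 counts in control replicate 3 and 0 in each other library.

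All 6 libraries are RNA of liver from C57BL/6 males reared for 71 weeks. The control group (3 libraries) had normal food, and the PS-MP group (3 libraries) had food containing polystyrene microplastic. The series asks how long exposure to the particles bears on gene expression in the liver. The sources used here give neither the size nor the dose of the particles. Nothing in the labels says that each library is a separate animal, so a p-value measures only how far these samples spread, which may be technical. Libraries held 68357478 to 112566641 counts. Hepatocyte markers (Alb, Apoa1, Ttr, Cyp2e1 and Hnf4a) summed to 57524 to 74670 counts scaled to equal library size (CPM) in control and to 63736 to 80381 CPM with PS-MP. Reads of 18S ribosomal RNA took 2.92%, 11.2% and 1.15% of counts in controls 1, 2 and 3 and 1.14%, 0.599% and 0.387% on PS-MP, so that the diets do not overlap in this share. Fits with its row removed are given at the end, but they cannot show its part in the results, which was not tested.

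SR proteins bind exonic enhancers through RNA recognition motifs and recruit the splicing machinery through a domain rich in arginine and serine. The CLK kinases phosphorylate that domain and release SR proteins from nuclear speckles. The hnRNPs coat nascent transcripts and often act against SR proteins at a splice site. Many genes of both families carry poison exons or retained introns, through which their products hold their own messenger RNA in check. Counts per gene do not separate such isoforms from the coding ones.

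No member passed the test between diets. With edgeR's quasi-likelihood test, 0 of 43 members had an adjusted p under 0.05 (smallest 0.767), against 0.0113% of all 17662 genes tested. At an unadjusted p under 0.05 there were 2 members, Son and Rbm25, against 5.38% of all genes. DESeq2 likewise called 0 members, with 2 at an unadjusted p under 0.05, against 6.29% of all genes. With limma-voom 0 were called and 1 (Son) had an unadjusted p under 0.05, against 6.05% of all genes. The median log2 fold change (PS-MP minus control) of the 43 members was 0.01, beside 0.02 over all genes tested, with 22 members above zero and 21 below. The 95% interval lay inside a 2-fold change for 26 members (60.5%), beside 53.6% of all genes. At matched level the order turned: among genes of 10 to 100 CPM, a band chosen after the values were seen, the interval lay inside 2-fold for 61.8% of 34 members and 82.5% of 5461 other genes. The levels of the diets, as CPM scaled by TMM, the trimmed mean of M values, did not overlap for 4 members (Son, Rbm25, Luc7l and Hnrnpab), against 11.2% of all genes tested.

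Among the SR-related genes, Son had the smallest p. Its product is a large scaffold of nuclear speckles that promotes splicing at weak splice sites. Son stood at 72.7, 41.9 and 73.2 CPM on normal chow against 29.9, 38.0 and 28.2 CPM with PS-MP. All PS-MP libraries lay below all control libraries, with control replicate 2 closest to them. The log2 fold change was -0.97 (SE 0.25, interval -1.56 to -0.37, n = 3 and 3, edgeR unadjusted p = 0.00668, edgeR adjusted p = 0.767), and DESeq2 gave an adjusted p of 0.0720. With any 1 library left out the log2 fold change of Son lay between -1.19 and -0.84. Gart, which starts head to head with Son, had 22.2, 20.6 and 28.6 CPM on normal chow against 31.4, 21.5 and 19.0 CPM with PS-MP, which overlap. Donson, which overlaps exons of Son on the other strand, lay between 1.71 and 2.58 CPM in all libraries. Neither gene of the same locus showed the separation between diets seen for Son.

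Rbm25, a regulator of 5′ splice site choice that works with U1 snRNP, had the second smallest p. Its levels were 11.8, 12.9 and 14.0 CPM on normal chow against 43.8, 19.6 and 15.3 CPM with PS-MP. The difference rests on PS-MP replicate 1, and the other PS-MP libraries lay just above the controls. The log2 fold change was 1.02 (SE 0.39, interval 0.09 to 1.96, n = 3 and 3, edgeR adjusted p = 0.910). Without PS-MP replicate 1 it was 0.43 (SE 0.19, edgeR unadjusted p = 0.0692). Luc7l, whose product binds U1 snRNP, had 17.7, 16.8 and 14.5 CPM on normal chow against 17.7, 20.6 and 23.5 CPM with PS-MP. The closest libraries of the diets almost touched, and the log2 fold change was 0.34 (SE 0.16, edgeR adjusted p = 0.923).

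Marker sums of some other cell types also lay apart between the diets, though no marker had an edgeR adjusted p under 0.05. Over all genes tested, 5.38% had an edgeR unadjusted p under 0.05 and 11.2% did not overlap between diets. The part of these markers in the values of Son and Rbm25 was not tested. The 5 Kupffer cell markers (Clec4f, Vsig4, Cd5l, Marco and Adgre1) summed to 77.5 to 101 CPM on normal chow against 113 to 135 CPM with PS-MP, with 2 of 5 at an unadjusted p under 0.05. The 3 erythroid markers summed to 184 to 325 CPM on normal chow against 365 to 531 CPM with PS-MP, with 1 of 3 at that level. Of the 3 neutrophil markers, Ly6g was at 0 in every library, and the sum was 0.520 to 0.702 CPM on normal chow against 1.12 to 3.94 CPM with PS-MP, with 2 of 2 tested markers at an unadjusted p under 0.05. Endothelial, stellate, cholangiocyte, lymphocyte, adipocyte and mesothelial sums overlapped between diets, although 1 of 1 tested adipocyte markers and 1 of 2 mesothelial markers had an unadjusted p under 0.05. In bulk liver, a change in the number of cells of a type and a change in RNA per cell cannot be told apart.

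**Figure D1:**
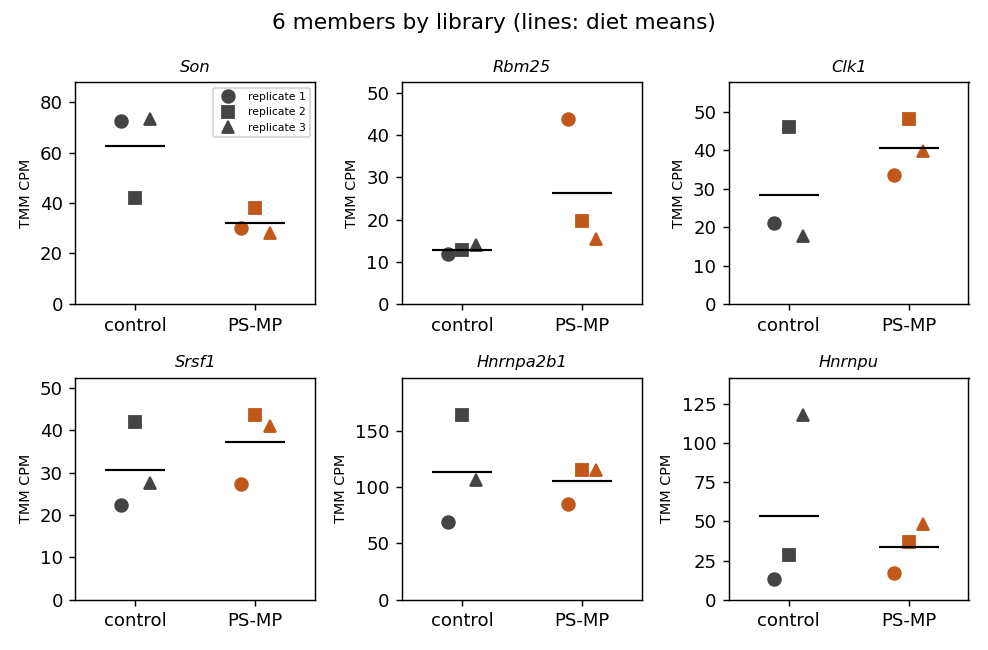
TMM-scaled CPM (y axis, from 0) of 6 members in each library, by diet, with symbols for the replicate number and lines for the mean of 3 libraries. Son lay lower in all PS-MP libraries, the mean of Rbm25 in PS-MP was drawn up by replicate 1 at 43.8 CPM, and Hnrnpu reached 118 CPM in control replicate 3.

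Of the other SR-related genes, Srrm2 and Tra2b overlapped widely between diets. Srrm2, a main organizer of nuclear speckles, had 41.9, 47.6 and 65.9 CPM on normal chow against 60.4, 30.2 and 86.5 CPM with PS-MP (log2 fold change 0.19 with an SE of 0.38 and edgeR adjusted p = 1). Both the lowest and the highest library were on PS-MP. Tra2b, a sequence-specific splicing activator, had 16.7, 19.7 and 13.9 CPM on normal chow against 11.3, 15.9 and 18.5 CPM with PS-MP (log2 fold change -0.14 with an SE of 0.23 and edgeR adjusted p = 1). The 9 SR-related genes had log2 fold changes from -0.97 to 1.02, with a median of 0.19.

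The 10 SR protein genes tested centred near zero, and for 7 of them (70%) the interval lay inside a 2-fold change. Their log2 fold changes ran from -0.30 to 0.49 with a median of 0.04, 5 were above zero and 5 below, and 0 had an unadjusted p under 0.05. Srsf1, a founding member of the family that acts in constitutive and alternative splicing, had 22.4, 42.0 and 27.6 CPM on normal chow against 27.3, 43.6 and 40.9 CPM with PS-MP (log2 fold change 0.28 with an SE of 0.28 and edgeR adjusted p = 1). Replicate 2 was the highest library in each diet. Srsf2, the speckle protein SC35, had 33.9, 30.3 and 39.8 CPM on normal chow against 24.8, 30.1 and 42.7 CPM with PS-MP (log2 fold change -0.09, SE 0.23). Srsf3, the smallest SR protein, had 27.6, 35.3 and 27.9 CPM on normal chow against 30.1, 39.7 and 30.6 CPM with PS-MP (log2 fold change 0.14, SE 0.17). A pseudogene row of Srsf3 held 56 to 107 counts per library, few beside the gene itself. Srsf5 was the most abundant SR gene, with 117, 165 and 102 CPM on normal chow against 145, 169 and 134 CPM with PS-MP (log2 fold change 0.22 with an SE of 0.21 and edgeR adjusted p = 1). Its libraries overlapped between diets, with replicate 2 again on top in each. With any 1 library left out, the log2 fold change lay between 0.102 and 0.575 for Srsf1, 0.005 and 0.268 for Srsf3, and 0.083 and 0.445 for Srsf5, each highest without control replicate 2.

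The CLK kinase genes had the highest median of the 4 groups, 0.46, but none had an unadjusted p under 0.05 with TMM scaling and all libraries. With scaling by library size only, Clk2 did. Clk1 stood at 21.1, 46.1 and 17.7 CPM on normal chow against 33.7, 48.1 and 39.8 CPM with PS-MP (log2 fold change 0.52 with an SE of 0.37 and edgeR adjusted p = 0.986). Clk4, its closest relative, stood at 2.63, 7.70 and 4.24 CPM on normal chow against 6.25, 5.54 and 7.53 CPM with PS-MP (log2 fold change 0.41 with an SE of 0.39 and edgeR adjusted p = 1). For both genes control replicate 2 lay within or above the range of PS-MP, while the other control libraries lay below it. Clk2 averaged 1.75 ± 0.507 CPM on normal chow against 2.48 ± 0.446 CPM with PS-MP, and Clk3 averaged 12 ± 3.51 CPM on normal chow against 10.1 ± 2.15 CPM with PS-MP (SD, n = 3 each).

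Leaving out control replicate 2 moved the values of several members. Without it, 6 of 43 members (14.0%) had an unadjusted p under 0.05 in edgeR, against 9.13% of the 18315 genes then tested, and 0 were called (smallest adjusted p = 0.461). They were Son, on the lower side, and Clk1, Clk2, Clk4, Luc7l3 and Srsf5, on the higher side. The log2 fold change of Clk1 was then 1.06 (SE 0.20, edgeR unadjusted p = 0.00233), that of Clk4 0.90 (SE 0.29, unadjusted p = 0.0247) and that of Luc7l3 0.88 (SE 0.27, unadjusted p = 0.0195). With all libraries these were 0.52, 0.41 and 0.31. Control replicate 2 also held the most 18S ribosomal RNA, and its level of Malat1, a noncoding RNA retained in nuclear speckles, was 410 CPM, against 165 and 152 CPM in the other controls and 164, 286 and 311 CPM in the PS-MP libraries. With the 18S row removed and all libraries kept, the log2 fold change of Clk1 was 0.52 and that of Clk4 0.41, as with the row kept. With TMM scaling, removing a single row hardly moves other genes, so this fit cannot show the part of 18S RNA. The part of these features in the values of the CLK genes was not tested.

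Many members were highest in the replicate 2 libraries, a pattern picked after the values were seen that joins libraries of both diets by number alone, since the numbers were not taken to pair samples. Control replicate 2 was the highest library for 13 of the 43 members (30.2%) and PS-MP replicate 2 for 12 (27.9%), beside 19.3% and 19.4% of all genes tested. Together 58.1% of members had their highest level in a replicate 2 library, beside 38.6% of all genes. Replicate 2 was the top library of both diets for 15 members (34.9%), beside 20.7% of all genes: Srsf1, Srsf3, Srsf5, Srsf7, Srsf10, Tra2a, Luc7l2, Clk1, Clk2, Hnrnpa2b1, Hnrnpa3, Hnrnpf, Hnrnph2, Hnrnpll and Hnrnpr. Replicate 2 was the lowest of both diets for 4 members (9.30%), beside 16.0% of all genes. The nuclear RNA Neat1 was also highest in replicate 2 of each diet, with 30.2, 59.8 and 6.27 CPM on normal chow against 23.7, 49.9 and 45 CPM with PS-MP. Snhg11 (10.2, 21 and 7.27 CPM on normal chow against 15.9, 26.6 and 18.5 CPM with PS-MP) was highest in replicate 2 of each diet. So was Gas5, with 48.6, 68.2 and 49.2 CPM on normal chow against 56.7, 66 and 55.7 CPM with PS-MP. The nuclear RNA Malat1 was highest in replicate 2 of the controls but in replicate 3 on PS-MP, and Kcnq1ot1 (4.70, 10.3 and 5.01 CPM on normal chow against 6.60, 6.32 and 6.12 CPM with PS-MP) in replicate 2 of the controls but replicate 1 on PS-MP. Meg3, Rn7sk and Rn7s1 likewise peaked in replicate 2 of the controls and replicate 1 on PS-MP. The part of library composition in this pattern was not tested.

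**Figure D2:**
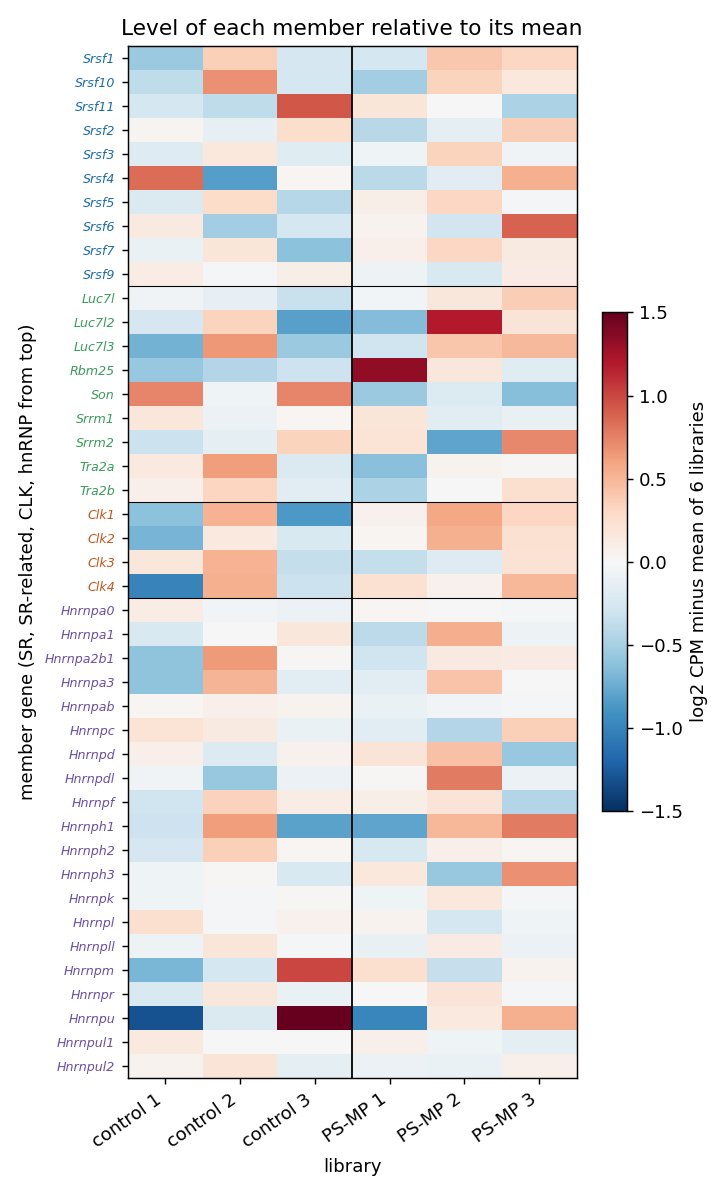
Each row is a member and each column a library, and colour gives log2 CPM minus the mean of the 6 libraries (colours end at 1.5 in either direction). Both replicate 2 columns hold many red cells, and Hnrnpu in control 3 and Rbm25 in PS-MP 1 stand out within their rows.

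The promoters of 4 of these 15 genes are shown as examples. All 15 were highest in replicate 2 of both diets, so that trait does not set these 4 apart. The 4 were chosen after their values were seen, and a link between motifs and the replicate 2 pattern was not tested. On PS-MP the lead of replicate 2 over replicate 3 was small for Hnrnpa2b1 (115 and 115 CPM) and Tra2a (5.37 and 5.23 CPM). Each is the 150 bases just before the RefSeq start of the gene (build GRCm38.p6), 5′ to 3′ on the strand of the gene, with capitals marking matches to any motif searched. They lie at chr6:51469846-51469995 on the minus strand (Hnrnpa2b1, 1 of 2 RefSeq starts), chr2:75659109-75659258 on the plus strand (Hnrnpa3), chr11:88047223-88047372 on the plus strand (Srsf1) and chr6:49264053-49264202 on the minus strand (Tra2a).
Hnrnpa2b1: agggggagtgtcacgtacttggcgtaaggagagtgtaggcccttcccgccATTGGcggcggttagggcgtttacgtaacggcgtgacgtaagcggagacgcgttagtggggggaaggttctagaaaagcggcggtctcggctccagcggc
Hnrnpa3: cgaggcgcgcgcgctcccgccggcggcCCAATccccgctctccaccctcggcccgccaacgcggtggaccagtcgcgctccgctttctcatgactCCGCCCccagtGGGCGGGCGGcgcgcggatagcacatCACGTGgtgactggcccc
Srsf1: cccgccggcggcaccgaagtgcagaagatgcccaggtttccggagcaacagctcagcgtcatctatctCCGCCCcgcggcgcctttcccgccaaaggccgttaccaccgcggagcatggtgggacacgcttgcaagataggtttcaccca
Tra2a: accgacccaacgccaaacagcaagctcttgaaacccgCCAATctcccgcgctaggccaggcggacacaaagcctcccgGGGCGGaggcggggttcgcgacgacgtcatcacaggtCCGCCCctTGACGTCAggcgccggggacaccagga

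The motifs, searched on both strands with overlapping matches merged, were the GC box GGGCGG, the CCAAT box, the TATA box TATAAA, the E-box CACGTG, the cAMP response element TGACGTCA, the ETS element CCGGAAGT, the YY1 element AAGATGGC and the palindrome CTCGCGAG. RefSeq promoters were matched for 40 members, and Clk1 was among those without one. A GC box lay in the window of 28 of the 40 (70.0%), beside 31.3% of all 27025 genes with a promoter, and CCAAT lay in that of 19 (47.5%), beside 27.7%. The windows of members were rich in G and C, with a median of 67.3% against 54.0% over all windows. The cAMP response element was found in 2 members, Clk4 and Tra2a (5%, beside 1.58%), and TATAAA in 3 (7.50%, beside 8.89%). Of the 4 genes shown, Hnrnpa2b1 (on the opposite strand), Hnrnpa3 and Tra2a hold CCAAT, and Hnrnpa3, Srsf1 and Tra2a hold a GC box. A match describes the letters only.

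The start of Hnrnpa2b1 faces that of Cbx3, a heterochromatin protein gene. Hnrnpa2b1, which binds and sorts RNA and is among the most abundant hnRNPs, had 69.0, 164 and 106 CPM on normal chow against 85.2, 115 and 115 CPM with PS-MP, with replicate 2 on top in each diet (log2 fold change -0.11 with an SE of 0.31 and edgeR adjusted p = 1). On PS-MP its replicate 2 barely exceeded replicate 3. Cbx3 had 18.2, 25.2 and 20.8 CPM on normal chow against 19.0, 24.3 and 17.1 CPM with PS-MP, also highest in replicate 2 of each diet but over a narrower range. Hnrnpa1, whose start faces that of Cbx5, had 22.0, 25.6 and 29.0 CPM on normal chow against 19.7, 37.6 and 24.4 CPM with PS-MP (log2 fold change 0.09, SE 0.26), and Cbx5 lay between 15.9 and 22.3 CPM. Hnrnpa1 has many processed copies in the genome, so its counts are uncertain.

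The 20 hnRNP genes had a median log2 fold change of -0.06, with 9 above zero and 11 below and 0 at an unadjusted p under 0.05. For 15 of them (75.0%) the interval lay inside a 2-fold change. Hnrnpk, which binds C-rich RNA, was among the steadiest members, with 96.9, 98.7 and 102 CPM on normal chow against 96.7, 112 and 99.4 CPM with PS-MP (log2 fold change 0.05, interval -0.22 to 0.32). Hnrnpab, a factor of RNA transport and transcription, had 120, 124 and 122 CPM on normal chow against 109, 114 and 115 CPM with PS-MP. Its libraries did not overlap, but the step was small (log2 fold change -0.11 with an SE of 0.10 and edgeR adjusted p = 1), and it turned to 0.10 when counts were scaled by library size only.

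Hnrnpu had the widest spread of all members within diets. Its product, also called SAF-A, binds nuclear RNA and chromatin. Levels were 13.4, 28.5 and 118 CPM on normal chow against 16.9, 36.7 and 48.2 CPM with PS-MP, so that control replicate 3 held 8.85-fold the level of control replicate 1. The log2 fold change of -0.65 (SE 0.80, interval -2.56 to 1.26, edgeR adjusted p = 1) rests on that library and was 0.70 without it. Cox20, a gene of respiratory chain assembly whose exons overlap those of Hnrnpu on the other strand, had 10.6 CPM in control replicate 3 and 1.47 to 2.70 CPM in the other 5 libraries. The sources used here do not give the strand setting of the counting, so reads of this pair cannot be told apart.

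The next widest were Hnrnph1, Luc7l2, Srsf4 and Hnrnpm. Hnrnph1, which binds G-rich RNA, had 13.4, 25.6 and 9.54 CPM on normal chow against 9.60, 23.6 and 28.5 CPM with PS-MP (log2 fold change 0.35, SE 0.50). Luc7l2, another U1 snRNP factor, had 14.6, 22.0 and 9.87 CPM on normal chow against 11.1, 39.8 and 19.9 CPM with PS-MP (log2 fold change 0.61, SE 0.50). The value of Hnrnph1 was 0.02 without PS-MP replicate 3 and 0.84 without control replicate 2. That of Luc7l2 rests on PS-MP replicate 2, without which it was 0.009. Replicate 1 was the lowest PS-MP library for both, and replicate 3 the lowest control. Srsf4, an SR protein, had 30.1, 9.48 and 17.2 CPM on normal chow against 12.8, 15.0 and 24.3 CPM with PS-MP (log2 fold change -0.12, SE 0.44). Hnrnpm, which binds GU-rich RNA, had 9.21, 12.4 and 29.9 CPM on normal chow against 17.6, 11.7 and 15.5 CPM with PS-MP (log2 fold change -0.21, SE 0.44). Srsf4 was thus high in control replicate 1 and Hnrnpm in control replicate 3, and the difference between diets then turned to 0.38 for Srsf4 and 0.47 for Hnrnpm without that library. For Srsf4 it was also above zero, at 0.06, without PS-MP replicate 1.

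Spread within diets was measured as the pooled SD of log2 CPM over the 3 libraries of each diet. Its median was 0.36 over the members and 0.34 over all genes tested. Members are more abundant than most genes, with a median of 30.1 CPM beside 4.81 CPM, and the plot of spread against level shows lower SDs at higher levels for most genes. Between 10 and 100 CPM, the median SD was 0.37 over 34 members and 0.22 over 5461 other genes, and the SD was over 0.5 for 32.4% of those members and 14.2% of those genes. By group, the median SD was 0.46 for CLK kinases, 0.41 for SR-related genes, 0.37 for SR proteins and 0.32 for hnRNPs. The range among hnRNPs was the widest, from 0.03 for Hnrnpab to 1.26 for Hnrnpu. These are descriptions of 6 libraries, with no test.

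**Figure D3:**
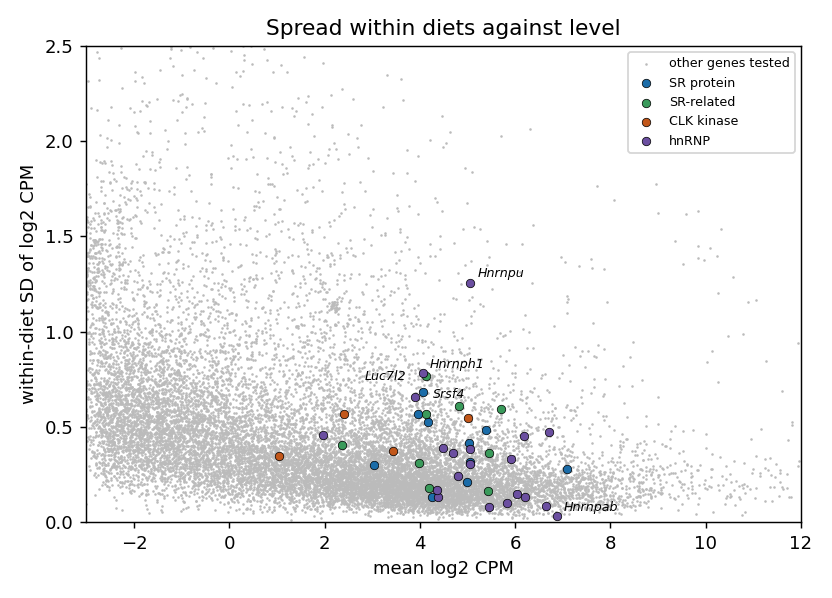
Mean log2 CPM (x axis) against the within-diet SD of log2 CPM (y axis) for each gene tested, with members coloured by group and other genes in grey. Hnrnpu stands at an SD of 1.26 and Hnrnpab at 0.03, and many members with 10 to 100 CPM lie above the bulk of grey points of their level. Another 446 genes lie outside the axes.

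Levels of different members were compared per length, as CPM per kilobase of the principal coding transcript in GENCODE M21, averaged over all libraries. Srsf5 was the highest at 90.9 ± 17.4, followed by Hnrnpa2b1 at 66.5 ± 19.8, Hnrnpa3 at 65.7 ± 18.7, Hnrnpab at 49.5 ± 2.31 and Hnrnpk at 37.8 ± 2.18 CPM per kilobase (SD, n = 6). Hnrnpa2b1 and Hnrnpa3 did not differ beyond their spread. Clk2 was the lowest member tested, at 0.983 CPM per kilobase, with 91 to 262 counts per library.

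**Figure D4:**
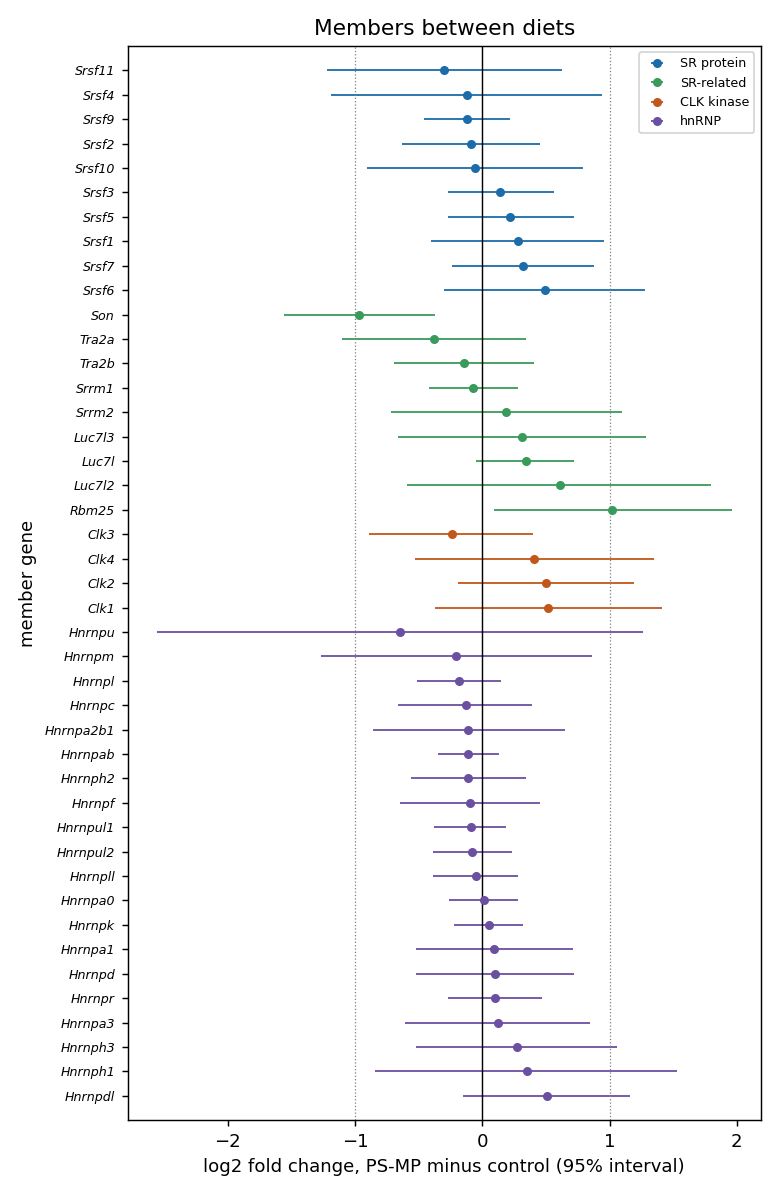
Log2 fold change, PS-MP minus control, with its 95% interval (x axis) for each of the 43 members tested, ordered within groups. Only the intervals of Son (-1.56 to -0.37) and Rbm25 (0.09 to 1.96) leave out zero, and dotted lines mark a 2-fold change.

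Other genes of splicing were read from 4 lists, and 0 of their 147 tested genes passed (smallest edgeR adjusted p = 0.778). At an edgeR unadjusted p under 0.05, 4 were higher and 4 lower, beside 5.38% of all 17662 genes tested. Among 58 further regulators of alternative splicing the median log2 fold change was 0.02. Thrap3, an SR-like protein of speckles, had 35.7, 43.2 and 22.5 CPM on normal chow against 12.6, 16.7 and 19.2 CPM with PS-MP (log2 fold change -1.06 with an SE of 0.28 and edgeR adjusted p = 0.778). Like Son, its PS-MP libraries all lay below its control libraries. The diets did not overlap for 15 of the 147 genes, beside 11.2% of all genes tested. Among the genes named here, Sfswap, U2af1l4, Snrpd2 and Ppp1r8 were also lower without overlap, and Rbm5, Snrnp70, Slu7 and Prpf40b higher. Sfswap, a splicing regulator with an SR-like domain, had -0.84, Rbm5 had 0.80 and Rsrp1 1.28 (edgeR adjusted p = 0.902, 0.906 and 0.923). Of 26 snRNP and Sm protein genes, Snrnp70, the U1 70K protein that SR proteins contact, had 0.72 and Snrpa1 0.82, while Snrpd3 had -0.25 and Snrpd2 -0.21. Of 54 core spliceosome genes, U2af1l4 had -0.81, the helicase gene Ddx39b -0.87, Slu7 0.48 and Prpf40b 0.56. Of 9 kinases, phosphatase regulators and import factors of SR proteins, Prpf4b had 0.36, Srpk2 0.04, Srpk1 -0.17 and Ppp1r8 -0.13. The value of Prpf4b was 1.06 without control replicate 2 and 0.09 without control replicate 1.

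These lists differed in spread. The median within-diet SD was 0.18 for core spliceosome genes (median level 15.9 CPM) and 0.20 for snRNP and Sm genes (12 CPM), beside 0.40 for the regulators of alternative splicing (21.8 CPM) and 0.36 for the members (30.1 CPM). An SD over 0.5 was seen in 7.41% of the core genes, 11.5% of the snRNP genes, 29.3% of the regulators and 27.9% of the members. The interval lay inside a 2-fold change for 83.3% of core genes and 88.5% of snRNP genes, against 60.5% of members.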

How the data were processed

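The authors deposited unnormalised whole-number counts per gene for each library and, by comparison of the values, the same counts in a table of the series. Per the labels, RNA was poly(A)-selected and libraries were directional. Per the submitters' processing notes, bcl2fastq and build GRCm39 were used. The sources used here do not give aligner, counter, annotation or strand setting. Files list 56674 rows, and rows of 67 repeated symbols were added up. With R 4.3.3 and edgeR 4.0.16, genes were filtered (filterByExpr by diet, 17662 kept), scaled by TMM and tested by the quasi-likelihood F test with diet as the single term, with p adjusted by Benjamini-Hochberg over all genes tested. Log2 levels used a prior count of 2. Alternatives were other scalings and filters, DESeq2 1.42.0, limma-voom (limma 3.58.1), robust dispersions, removal of 18S RNA, a block for replicate number, and dropping 1 library at a time.

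Members, lists and level bands were chosen with earlier results of these data known. Values in every library are given for members with an unadjusted p under 0.05, without overlap between diets or among the 5 of widest spread, and for 13 fixed members; other lists name the 2 genes of smallest p in each direction. GENCODE M21 (GRCm38) gave transcript lengths and neighbouring genes; 16 members overlap exons of a gene on the other strand. Other members named were chosen after their values were seen.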

Additional observations from a re-analysis of the deposited data

How the results depend on the processing

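No member had an adjusted p under 0.05 in any setting run, nor under 0.1 with edgeR and all libraries; the smallest was 0.072, for Son with DESeq2, which called 187 genes in all against 2. Members at an unadjusted p under 0.05 numbered 2 with all libraries (against 5.38% of all genes) and 5 with library size only (11.6%, against 9.54%). There was 1 with limma-voom (2.33%, against 6.05%) and 1, Son, with the replicate block (2.33%, against 5.35%). With a library left out there were 1 to 6. There was 1 (2.33%) without control replicate 1 (against 4.62% of all genes), control replicate 3 (4.03%) or PS-MP replicate 1 (3.94%). There were 2 (4.65%) without PS-MP replicate 2 (against 4.33%) or PS-MP replicate 3 (6.78%), and 6 (14.0%) without control replicate 2 (against 9.13%). The replicate block called 0 genes in all, against 2. Same-numbered libraries deviated from their diet means with correlations over genes of 0.11, 0.14 and -0.13. Replicates 1 and 2 correlated best with their own number and replicate 3 did not, and all these correlations were small. The numbers were taken not to pair samples, a choice that these values do not settle. Members whose diets did not overlap numbered 8 with library size only (18.6%, against 19.1% of all genes), against 4 (9.30%, against 11.2%), and members highest in a replicate 2 library 22 to 25 over the scalings. Library size only moved the median log2 fold change of all genes from 0.02 to 0.232 and of members to 0.221, with 37 of 43 members above zero against 22. It turned the sign of Hnrnpab (0.103), Srsf4 (0.072), Srsf2 (0.121), Hnrnpa2b1 (0.125), Tra2b (0.083), Srpk1 (0.04), Ppp1r8 (0.076) and Snrpd2 (0.002). With a library left out, signs turned for Hnrnpu (-1.114 to 0.702), Srsf4 (-0.457 to 0.381), Hnrnpm (-0.507 to 0.467), Srsf2 (-0.349 to 0.074), Hnrnpa1 (-0.209 to 0.276), Hnrnpa2b1 (-0.362 to 0.257), Hnrnpk (-0.017 to 0.09), Tra2b (-0.317 to 0.038), Srrm2 (-0.208 to 0.506) and Srpk2 (-0.099 to 0.156). The other 552 of 576 values of the 36 named genes kept direction, though many moved in size. No named gene had an adjusted p under 0.05 in any setting, so keeping the same side of the threshold carried no information. The causes were not tested. The median of members lay between -0.03 and 0.075 with a library left out, and their median spread between 0.324 and 0.371. With the 18S row removed, 2 members (Rbm25 and Son) had an edgeR unadjusted p under 0.05 (4.65%, against 5.37% of all genes). The median of members was then 0.011. Removing a single row hardly moves other genes with TMM scaling, so these values do not test the part of 18S RNA.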
